A study of Mus musculus with 18 samples.

Results

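The genes described here encode the nuclear subunits of the mitochondrial respiratory chain and of ATP synthase, read in mouse lung and lung tumours. They were chosen by name alone: every array probe set with only 1 gene symbol, where that symbol fits the naming patterns of the subunits of complexes I to V, and 1 probe set per gene, the one with the highest mean over the 18 arrays. This gave 81 genes of the 18193 that were tested, with 35 of complex I (Nduf genes), 4 of complex II (Sdha to Sdhd), 8 of complex III (Uqcr genes), 17 of complex IV (Cox4 to Cox8 genes) and 17 of complex V (Atp5 genes). The pattern goes by name, so a few genes it takes, such as Ndufa4, Ndufa4l2 and Cox7a2l, are counted under the complex their symbol names although they are known as subunits or partners of other assemblies of the chain.

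The mice were of the B6C3F1/N strain, a hybrid used in long-term carcinogenicity studies, and were 5 to 6 weeks old when an inhalation study of cobalt metal particles began. Exposed groups breathed air with 1.25, 2.5 and 5 mg/m3, beside a group at 0 mg/m3, on 5 days of the week for about 6 hours each, and the study ran to at most 105 weeks. Control lung (6 arrays) came from vehicle control mice, the spontaneous tumours (6 arrays) are lung tumours labelled as arising without treatment, and the cobalt tumours (6 arrays) are lung tumours of cobalt-treated mice. Tumours had been dissected from the lung around them, so a tumour sample is compared with whole lung and not with the cells it arose from. The labels give neither the concentration, sex nor age at collection behind a sample, and whether each array stands for a mouse of its own is not stated, so the p-values reflect array-to-array spread, which may be technical in part.

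The respiratory chain passes electrons from NADH, through complex I, or from succinate, through complex II, to complex III, cytochrome c and complex IV, where oxygen is reduced. Complexes I, III and IV pump protons across the inner mitochondrial membrane, and complex V, the ATP synthase, makes ATP as the protons return. Most subunits are encoded in the nucleus and made in nearly every cell, while a few of complex IV have tissue-restricted isoforms: Cox6a2, Cox7a1 and Cox8b are known from heart and skeletal muscle, Cox4i2 from lung and vessel walls, and Cox6b2, Cox7b2 and Cox8c from testis. Together with Ndufa4l2, a paralog of Ndufa4 known to be induced by low oxygen and made in pericytes, these make up the 8 restricted isoforms, and the other 73 genes are called common subunits below. In healthy lung, alveolar type 2 cells, which make surfactant, are known to be rich in mitochondria.

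Promoters of the common subunits are known for binding sites of NRF1, of ETS family factors such as GABP, of YY1 and of the oestrogen-related receptors. RefSeq promoters of 300 bases (250 before and 50 after the start) on the GRCm38.p6 build were found for 66 of the 81 genes, 71 promoters in all. On either strand, the NRF1 letters (GCGCA, any base, then GCGC) stood in 22.5% of these promoters and in 4.60% of all 32851 in the table, and the ETS core CCGGAAG in 23.9% and 8.86%. The YY1 letters AANATGGCG were in 12.7% of them against 2.38% of all, and the oestrogen-related receptor letters AAGGTCA in 11.3% against 4.72%. The MEF2 motif of muscle genes, which stood in 3.19% of all promoters, was in 0 of these. The 4 promoters found for restricted isoforms held 0 matches to any of the motifs. Since each motif is in 2.38% to 8.86% of all promoters, 0 matches in 4 cannot show a lack of them. Their median GC content was 50.8%, against 59% for 67 promoters of common subunits and 52.7% for all. Shown here are the 250 bases before the start of 4 common subunits whose RNA changed in both tumour groups and of the 2 restricted isoforms with the largest falls. All 4 of these common subunits hold a match, and they do not stand for every common subunit that changed. Ndufb1, Ndufv2, Cox7c and Cox7a2l also rose in both tumour groups, and their promoters held 0 matches. Capitals mark the matches, and none of the 6 windows overlaps another annotated gene:
Cox6a1 promoter, chr5:115348959-115349208, minus strand: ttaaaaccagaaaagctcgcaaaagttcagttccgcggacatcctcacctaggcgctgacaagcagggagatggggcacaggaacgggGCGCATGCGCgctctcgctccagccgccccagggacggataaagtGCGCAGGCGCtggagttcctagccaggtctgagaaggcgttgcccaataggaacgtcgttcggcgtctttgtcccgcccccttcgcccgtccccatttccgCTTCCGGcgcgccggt
Atp5g2 promoter, chr15:102671048-102671297, minus strand: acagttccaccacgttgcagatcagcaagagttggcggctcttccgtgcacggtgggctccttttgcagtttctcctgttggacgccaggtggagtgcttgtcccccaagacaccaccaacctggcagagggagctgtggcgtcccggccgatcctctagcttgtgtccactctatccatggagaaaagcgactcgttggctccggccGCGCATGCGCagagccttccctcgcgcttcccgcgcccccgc
Cox6b1 promoter, chr7:30626115-30626364, minus strand: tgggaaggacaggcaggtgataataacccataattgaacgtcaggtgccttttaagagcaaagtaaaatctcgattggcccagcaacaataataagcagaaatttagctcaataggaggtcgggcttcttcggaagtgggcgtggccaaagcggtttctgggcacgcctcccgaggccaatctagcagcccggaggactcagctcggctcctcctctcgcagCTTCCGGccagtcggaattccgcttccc
Ndufb2 promoter, chr6:39592315-39592564, plus strand: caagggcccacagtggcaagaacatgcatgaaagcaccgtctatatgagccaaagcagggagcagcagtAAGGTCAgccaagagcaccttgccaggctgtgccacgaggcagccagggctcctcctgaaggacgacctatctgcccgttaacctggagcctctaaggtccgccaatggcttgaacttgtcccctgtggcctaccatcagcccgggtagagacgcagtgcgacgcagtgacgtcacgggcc
Cox7a1 promoter, chr7:30183921-30184170, plus strand: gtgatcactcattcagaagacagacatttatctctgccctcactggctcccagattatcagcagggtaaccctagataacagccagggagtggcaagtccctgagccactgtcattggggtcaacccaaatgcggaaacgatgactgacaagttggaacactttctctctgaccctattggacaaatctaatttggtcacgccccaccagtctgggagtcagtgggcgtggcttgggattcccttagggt
Cox8b promoter, chr7:140900447-140900696, minus strand: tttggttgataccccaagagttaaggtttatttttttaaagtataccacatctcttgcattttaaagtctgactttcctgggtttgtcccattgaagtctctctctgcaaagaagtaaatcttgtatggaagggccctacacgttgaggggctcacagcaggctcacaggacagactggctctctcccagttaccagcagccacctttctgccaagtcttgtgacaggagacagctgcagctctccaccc
In Cox6a1 the NRF1 matches lie 162 and 117 bases before the start and the ETS core 16 bases before it. Atp5g2 has its NRF1 match 42 bases before the start, Cox6b1 an ETS core 28 bases before it, and Ndufb2 the oestrogen-related receptor letters 181 bases before it. The first of these fell in both tumour groups and the other 3 rose, as given below. The muscle isoforms Cox7a1 and Cox8b show no match. Of 33 promoters of genes that rose in spontaneous tumours, 21.2% held the NRF1 letters and 18.2% the ETS core, against 23.7% and 28.9% of the 38 promoters of the other genes, and the YY1 letters stood in 18.2% and 7.89%. These are descriptions of letters, and no factor's binding was measured.

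Values are log2 levels made with RMA, and a difference of 1 is a 2-fold change. The first principal component over all 45101 probe sets held 50.8% of the variance and placed the controls at -94.7 to -87.5. Cobalt tumour 6 stood at -31.4, between the controls and the other tumours at 24.6 to 82.3, and it correlated more closely with the controls (mean r 0.971) than with the other cobalt tumours (0.954). Spontaneous tumours 2 and 6 stood apart on the second component, which held 12.5%. The free-text description of control 6 calls it a spontaneous tumour, while its title, source and group say control, and it lay with the controls. All 6 controls, 2 spontaneous and 4 cobalt tumours had high levels of Xist, an RNA of the inactive X chromosome, so sex and group are partly confounded, and the counts on arrays with high Xist alone are given beside the main ones. The 81 genes are among the brighter ones on the array: 67 had a mean above 10, and their median percentile among all genes was 95.9.

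Of 10 alveolar type 2 markers 4 were higher and 0 lower in spontaneous tumours, and 6 higher and 1 lower in cobalt tumours. The log2 of their summed level ran from 16.86 to 17.04 in controls and 17.37 to 17.49 in cobalt tumours. Spontaneous tumours were split, with numbers 2 and 6 below all controls, at 16.61 and 16.46, and the others at 17.44 to 17.62. Markers of most other lung cells were lower in both tumour groups. In spontaneous and cobalt tumours, respectively, 13 and 13 of 13 endothelial markers were lower, as were 9 and 9 of 10 ciliated, 5 and 7 of 7 club cell, 6 and 6 of 8 alveolar type 1, 5 and 5 of 10 fibroblast, 5 and 7 of 8 T and NK cell and 3 and 3 of 5 B cell markers. Of 5 red cell and platelet markers, 3 and 3 were lower and 0 and 1 higher. Higher were 4 and 2 of 8 alveolar macrophage markers (0 and 1 lower), 5 and 4 of 9 markers of other macrophages (0 and 2 lower), and 7 and 1 of 7 proliferation markers; 2 and 0 fibroblast markers were also higher. In such bulk samples, fewer cells of a type and less RNA per cell cannot be told apart.

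The first comparison in the submitters' design is spontaneous tumour against control lung. Of the 81 genes, 37 rose and 5 fell (limma, Benjamini-Hochberg adjusted p under 0.05 over all genes), and 39 did not pass. Among all genes 34.6% were called, 16.4% higher and 18.2% lower. Common subunits accounted for all 37 rises and 1 fall, with a median difference of 0.27, and the restricted isoforms for the other 4 falls, with a median of -0.85, where the median over all genes was -0.03. Groups did not overlap for 30 genes that were higher and 4 that were lower, beside 21.1% of all genes, 9.21% higher and 11.9% lower.

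Cobalt tumours against control lung are the other comparison of the design. Here 25 of the 81 rose, 11 fell and 45 did not pass, beside 34% of all genes called, 14.7% higher and 19.3% lower. Common subunits accounted for 25 rises and 5 falls (median 0.17) and restricted isoforms for 6 falls (median -0.99). Groups did not overlap for 13 higher and 6 lower genes, beside 18.9% of all genes, 8.1% higher and 10.8% lower. The same 6 controls serve both comparisons. Called higher in both were 22 genes, in spontaneous tumours alone 15 and in cobalt tumours alone 3; called lower in both were 5, and 6 more in cobalt tumours alone; 0 were called in opposite directions.

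Bright genes as a whole stood higher in the tumours, and the count of rises depends on how such genes are scaled. Among the 2099 genes with a mean above 10, 49.8% were called in spontaneous tumours, 32.7% higher and 17.1% lower. In cobalt tumours 49.7% of them were called, 30.3% higher and 19.4% lower. Of the 67 bright respiratory genes 33 rose (49.3%) and 1 fell (1.49%) in spontaneous tumours. In cobalt tumours 22 rose (32.8%) and 5 fell (7.46%), so the share that rose there was close to that of all bright genes. Cyclic loess, which rescales arrays along the brightness, took the median difference of all bright genes from 0.15 to 0.01 in spontaneous tumours and from 0.10 to -0.01 in cobalt tumours. With it, 23 common subunits rose and 5 fell in spontaneous tumours (median 0.13), and 16 rose and 9 fell in cobalt tumours (median 0.07). Of all bright genes it then called 21.5% higher and 23.8% lower in spontaneous tumours, and 22.2% and 25.5% in cobalt tumours. The share of common subunits that rose in cobalt tumours, over bright and dim ones together, was thus again close to that of all bright genes. The share of common subunits that fell there was below that of bright genes. The restricted isoforms kept 4 and 6 falls. On the deposited scale but with the high-Xist arrays alone (6 controls, 2 spontaneous and 4 cobalt tumours), 23 of the 81 rose and 6 fell in spontaneous tumours and 21 rose and 6 fell in cobalt tumours. Of the named subunits, those arrays ended the calls of Atp5b, Atp5g2, Atp5g3, Cox4i1, Cox5b, Cox7a2l and Cox7c in spontaneous tumours and of Atp5g2, Cox6a2, Cox6b2 and Ndufb11 in cobalt tumours. Which of the scales lies nearer to the tissue was not tested.

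**Figure D1:**
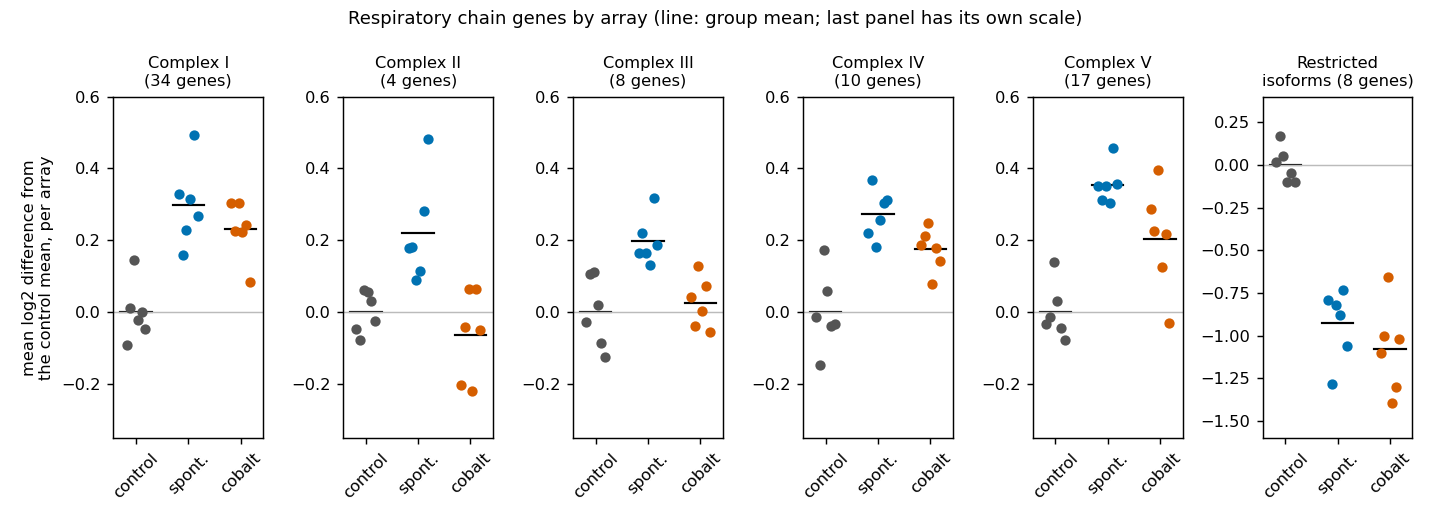
Mean log2 difference from the control mean over the common subunits of each complex, and over the 8 restricted isoforms (last panel, with its own scale); each point is 1 array and each line a group mean. Every spontaneous tumour lies above every control for all 5 complexes, cobalt tumours overlap the controls for all 5, with cobalt tumours 1 and 4 below every control for complex II, and the restricted isoforms are lower in all 12 tumours.

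Averaged over the 73 common subunits, each array's difference from the control mean ran from -0.06 to 0.14 in controls (median -0.02), from 0.23 to 0.43 in spontaneous tumours (median 0.28) and from 0.04 to 0.28 in cobalt tumours (median 0.19). Thus all spontaneous tumours lay above all controls, while the cobalt tumours overlapped them. Gene by gene, 43 to 58 of the 73 stood above all 6 controls in a spontaneous tumour, with 2 to 5 below all of them. In a cobalt tumour 25 to 44 stood above and 5 to 14 below. The lowest count above, 25, was that of cobalt tumour 6.

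Complex I, the NADH dehydrogenase, gave similar counts in both tumour groups. Of its 34 common subunits 15 rose and 0 fell in spontaneous tumours (median 0.24), and 14 rose and 1 fell in cobalt tumours (median 0.21); with cyclic loess these were 12 and 0 (median 0.11), and 11 and 2 (median 0.10). Its 6 measured core subunits of the matrix arm carry the flavin and most iron-sulphur clusters. They gave 3 rises in spontaneous tumours and 2 in cobalt tumours, with medians of 0.20 and 0.13. The counts by complex, here and below, stand beside 32.7% and 30.3% of genes with a mean above 10 called higher. Of the same bright genes 17.1% and 19.4% were called lower.

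Ndufb2, an accessory subunit of the membrane arm, had levels of 9.97 to 10.18 in controls (median 10.03), 10.34 to 11.40 in spontaneous tumours (median 10.72) and 9.83 to 11.16 in cobalt tumours (median 11.05). It rose 1.72-fold in spontaneous tumours (log2 difference 0.78 ± 0.20 (SE, n = 6 a group), adjusted p = 0.00601) and 1.73-fold in cobalt tumours (0.79 ± 0.20, adjusted p = 0.00561). The control and spontaneous groups did not overlap, and among cobalt tumours only number 6 lay as low as the controls; without it the difference was 0.99. For Ndufa2, an accessory subunit of the matrix arm, controls ran from 10.67 to 10.94 (median 10.82), spontaneous tumours from 11.26 to 11.78 (median 11.43) and cobalt tumours from 11.21 to 11.61 (median 11.49). Both tumour groups lay wholly above the controls, by 0.69 ± 0.09 (1.61-fold, adjusted p = 2.52e-05) and 0.66 ± 0.09 (1.58-fold, adjusted p = 4.09e-05). Ndufb1, another accessory subunit of the membrane arm and one of the dimmer genes, went from 6.32 to 6.83 in controls (median 6.61) to 7.02 to 7.39 (median 7.26) in spontaneous and 6.83 to 7.52 (median 7.25) in cobalt tumours. Its differences were 0.63 ± 0.12 in each (1.55- and 1.54-fold, adjusted p = 0.000613 and 0.000653), with all tumours above all controls.

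Core subunits differed among themselves. Ndufs3, a core protein near the site of ubiquinone reduction, ran from 10.28 to 10.49 in controls (median 10.35), 10.62 to 11.15 in spontaneous (median 10.77) and 10.53 to 10.95 in cobalt tumours (median 10.77), and rose by 0.44 ± 0.09 (adjusted p = 0.00109) and 0.41 ± 0.09 (adjusted p = 0.00201). Ndufv2, which holds an iron-sulphur cluster beside the flavin, ran from 10.87 to 11.21 in controls, 11.31 to 11.55 in spontaneous and 11.30 to 11.83 in cobalt tumours, and rose by 0.39 ± 0.09 (adjusted p = 0.00231) and 0.40 ± 0.09 (adjusted p = 0.00189). Both were chosen after their values were seen, and in both all tumours lay above all controls. Ndufs1, the largest iron-sulphur subunit, ran from 9.60 to 9.74 in controls, 9.63 to 10.44 in spontaneous tumours (median 9.86) and 9.38 to 9.73 in cobalt tumours (median 9.62). Its rise in spontaneous tumours (0.29 ± 0.11, adjusted p = 0.0466) was lost in 13 of the 18 fits that left out 1 array (without any 1 control, spontaneous tumour 4, 5 or 6, or cobalt tumour 2, 3, 4 or 5; adjusted p 0.0527 to 0.0913), with a difference of 0.19 without spontaneous tumour 5. It was also lost with cyclic loess (0.19, adjusted p = 0.201), and in cobalt tumours the difference was -0.07 (adjusted p = 0.648). Ndufv1, which binds NADH and the flavin, had medians of 10.66, 10.71 and 10.72 in controls, spontaneous and cobalt tumours, and the groups overlapped (differences 0.10 and 0.05, adjusted p = 0.411 and 0.711). Its further probe sets moved in the same direction by more. Both were called higher in spontaneous tumours (0.25 and 0.49), and 1 was called higher in cobalt tumours (0.30). Whether Ndufv1 is called thus depends on the probe set. Ndufs4, an accessory subunit of the matrix arm, was chosen after its values were seen: it ran from 9.02 to 9.25 in controls, 9.40 to 9.66 in spontaneous tumours and 9.08 to 9.51 in cobalt tumours. It rose by 0.43 ± 0.08 in spontaneous tumours (adjusted p = 0.000573), with no overlap, and differed by 0.12 in cobalt tumours (adjusted p = 0.276), where its other probe sets were called in opposite directions.

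The X-linked subunits were Ndufa1 and Ndufb11, both small membrane arm proteins. Ndufa1 had medians of 11.97, 11.96 and 11.91 in controls, spontaneous and cobalt tumours (differences 0.04 and -0.11, adjusted p = 0.798 and 0.420), and with cyclic loess it was called lower in cobalt tumours (-0.26, adjusted p = 0.0496). Ndufb11 ran from 11.63 to 11.87 in controls, 11.73 to 12.21 in spontaneous and 11.82 to 12.28 in cobalt tumours; it rose 1.23-fold in cobalt tumours (0.30 ± 0.10, adjusted p = 0.0243) and missed the threshold in spontaneous tumours (0.25, adjusted p = 0.0526). Its rise in cobalt tumours was lost without control 1, cobalt tumour 1 or cobalt tumour 3 (adjusted p 0.0562 to 0.0616), and with cyclic loess (0.15, adjusted p = 0.249); in spontaneous tumours a further probe set was called higher. The median of Ndufb11 was 12.03 in the 6 tumours with high Xist and 12.11 in the 6 with low Xist, against 11.80 in the controls, all of which had high Xist.

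**Figure D2:**
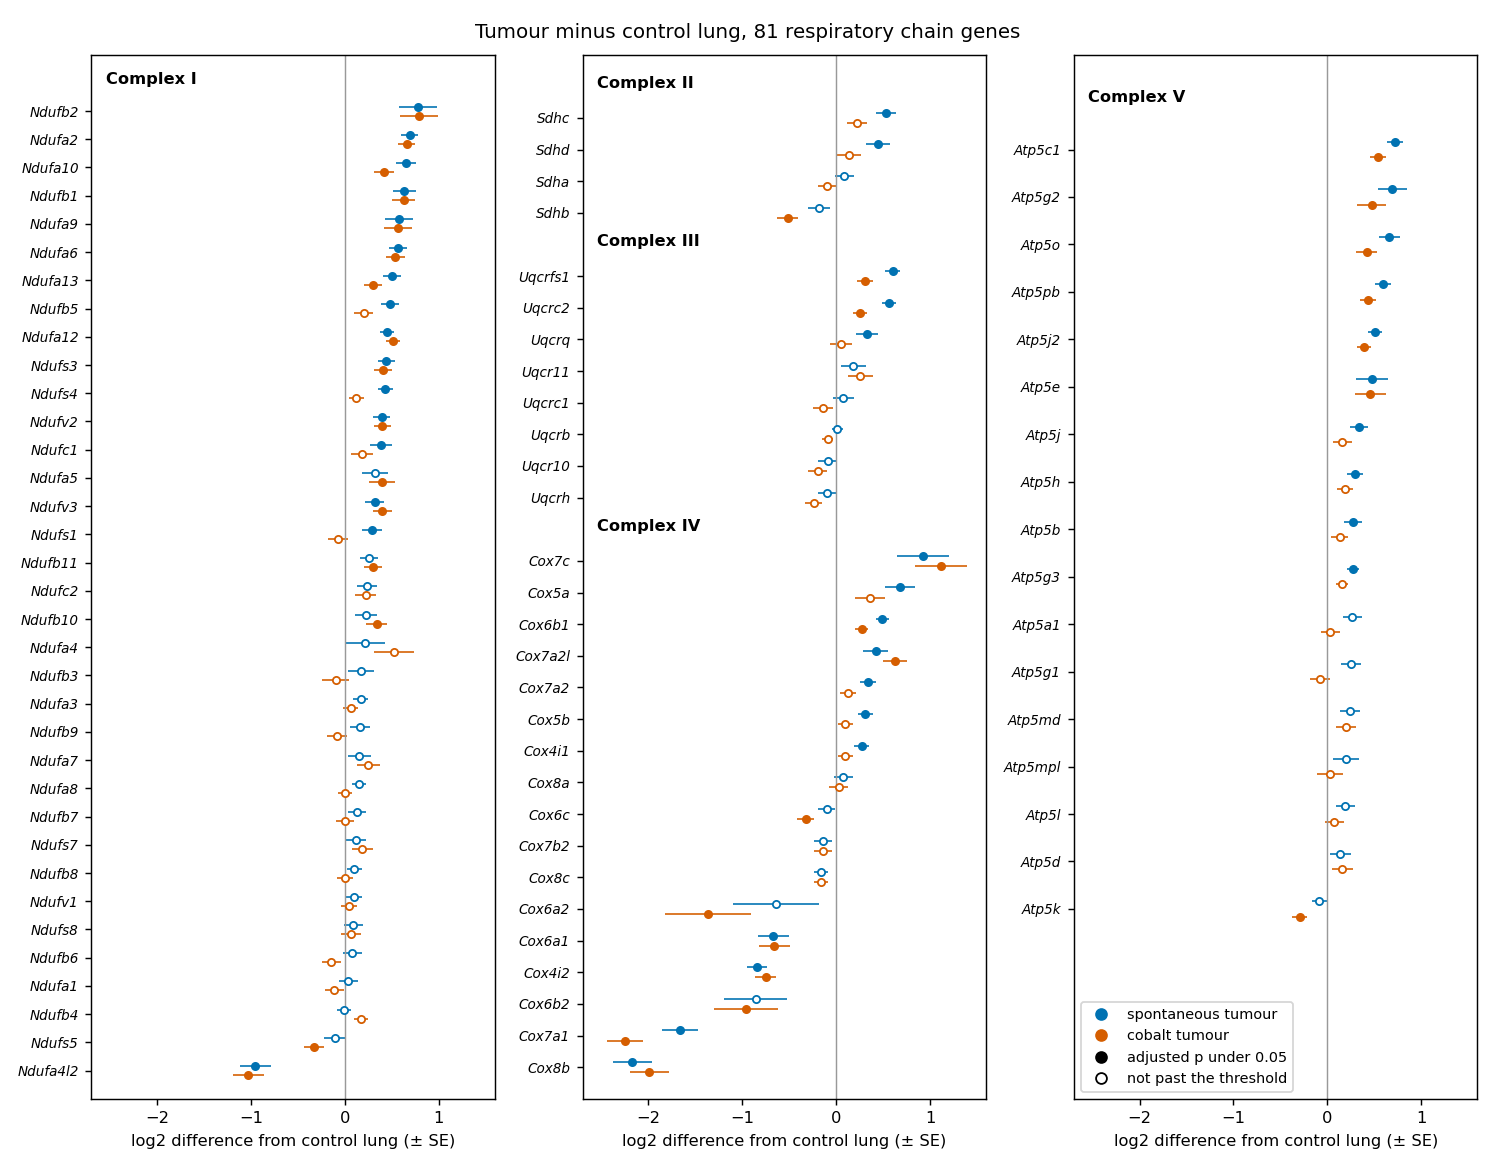
Log2 difference from control lung with its SE for all 81 genes, by complex, in spontaneous tumours (blue) and cobalt tumours (orange); filled points have an adjusted p under 0.05 and open points do not. Most common subunits lie between 0 and 0.8, and the falls beyond -0.7 in complex IV and at Ndufa4l2 are restricted isoforms.

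Complex II, succinate dehydrogenase, links the citric acid cycle to the chain. As in complex III, given below, its array means lay apart between the tumour groups. The mean of its 4 subunits ran from -0.08 to 0.06 in controls, 0.09 to 0.48 in spontaneous tumours (median 0.18) and -0.22 to 0.06 in cobalt tumours (median -0.05), so that every spontaneous tumour lay above every control and every cobalt tumour. In spontaneous tumours 2 of the 4 rose and 0 fell (median 0.27), and in cobalt tumours 0 rose and 1 fell (median 0.02). With cyclic loess these were 1 and 1 (median 0.14), and 0 and 1 (median -0.08).

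Sdhc and Sdhd, which anchor the enzyme in the membrane, were the subunits that rose in spontaneous tumours. Sdhc ran from 9.99 to 10.46 in controls (median 10.20), 10.61 to 11.21 in spontaneous (median 10.66) and 10.31 to 10.55 in cobalt tumours (median 10.44), with differences from control of 0.53 ± 0.11 (1.45-fold, adjusted p = 0.000803) and 0.22 (adjusted p = 0.117). Sdhd ran from 10.10 to 10.40 in controls (median 10.25), 10.48 to 11.19 in spontaneous (median 10.62) and 10.13 to 10.75 in cobalt tumours (median 10.28), with differences of 0.45 ± 0.13 (1.36-fold, adjusted p = 0.012; 0.33 and adjusted p = 0.0538 with cyclic loess) and 0.13 (adjusted p = 0.470). For both, spontaneous tumours and controls did not overlap, and cobalt tumours overlapped the controls. The iron-sulphur subunit Sdhb went the other way in cobalt tumours: levels of 10.85 to 11.16 in controls (median 10.96), 10.43 to 11.05 in spontaneous (median 10.81) and 10.21 to 10.78 in cobalt tumours (median 10.44) gave a fall of 1.43-fold in cobalt tumours (-0.52 ± 0.12, adjusted p = 0.00208), with no overlap. In spontaneous tumours Sdhb differed by -0.18 (adjusted p = 0.237), a value that passed the test with cyclic loess (-0.31, adjusted p = 0.0391). Sdha, the flavoprotein that oxidises succinate, had medians of 11.20, 11.26 and 11.11 and overlapping groups (0.09 and -0.10, adjusted p = 0.515 and 0.497). In cobalt tumours a further probe set of Sdhd (0.45, adjusted p = 0.0247) and 1 of the 3 further ones of Sdha (0.57, adjusted p = 0.0118) were called higher, so the absence of rises there holds only for the chosen probe sets.

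**Figure D3:**
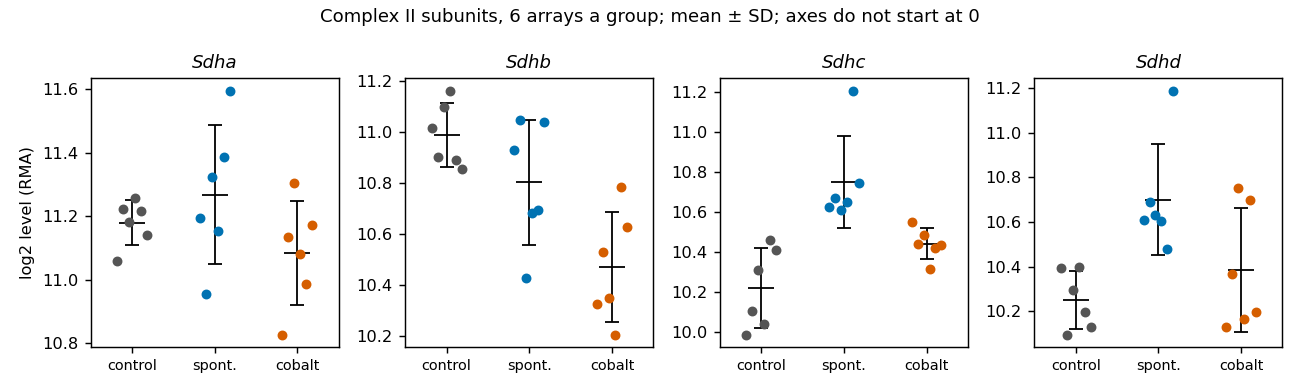
Log2 levels of the 4 complex II subunits, with 6 arrays a group as points and the mean ± SD as bars; axes do not start at 0. Sdhc and Sdhd are higher in spontaneous tumours with no overlap with the controls, and Sdhb is lower in cobalt tumours with no overlap with the controls.

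In complex III, which hands electrons from ubiquinol to cytochrome c, 3 of 8 subunits rose and 0 fell in spontaneous tumours (median 0.13). In cobalt tumours 2 rose and 0 fell (median -0.02). The shares that rose, 37.5% and 25%, were near the 32.7% and 30.3% of all genes with a mean above 10. Those bright genes had medians of 0.15 and 0.10. With cyclic loess 2 of the 8 subunits rose and 1 fell in spontaneous tumours (median 0.01), and 0 rose and 3 fell in cobalt tumours (median -0.13). Array means of complex III ran from -0.125 to 0.112 in controls, 0.132 to 0.318 in spontaneous and -0.056 to 0.129 in cobalt tumours. Every spontaneous tumour thus lay above every control and every cobalt tumour, as in complex II. The Rieske iron-sulphur protein Uqcrfs1 ran from 10.44 to 10.78 in controls (median 10.55), 11.04 to 11.37 in spontaneous (median 11.19) and 10.74 to 11.11 in cobalt tumours (median 10.86). It rose by 0.60 ± 0.08 (1.52-fold, adjusted p = 2.55e-05) and 0.31 ± 0.08 (1.24-fold, adjusted p = 0.00717; 0.20 and adjusted p = 0.0736 with cyclic loess), without overlap in the former. Core protein Uqcrc2, chosen after its values were seen, rose by 0.56 ± 0.08 (1.48-fold, adjusted p = 2.52e-05) and 0.25 ± 0.08 (1.19-fold, adjusted p = 0.016), from 10.58 to 10.66 in controls to 11.01 to 11.35 and 10.68 to 11.12, with no overlap in either. Its partner core protein Uqcrc1 had medians of 10.62, 10.65 and 10.46 with overlapping groups (0.08 and -0.14, adjusted p = 0.621 and 0.363).

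Complex IV, cytochrome c oxidase, held changes in both directions. Among its 10 common subunits 7 rose and 1 fell in spontaneous tumours (median 0.33), and 3 rose and 2 fell in cobalt tumours (median 0.11). With cyclic loess these were 3 and 2 (median 0.16), and 2 and 2 (median -0.05). In spontaneous tumours the rises of Cox6b1, Cox5a and Cox7c held there, and those of Cox4i1 (0.09, adjusted p = 0.430), Cox5b (0.14, adjusted p = 0.213), Cox7a2 (0.17, adjusted p = 0.162) and Cox7a2l (0.27, adjusted p = 0.118) did not pass.

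The subunits that rose in both tumour groups were Cox7c, Cox7a2l and Cox6b1. Cox7c, a small membrane subunit read here at a low level, ran from 4.82 to 7.18 in controls (median 6.69), 7.10 to 7.61 in spontaneous (median 7.34) and 7.23 to 7.85 in cobalt tumours (median 7.51). Its differences of 0.92 ± 0.28 (1.90-fold, adjusted p = 0.0155) and 1.12 ± 0.28 (2.17-fold, adjusted p = 0.00444) were partly set by control 2, at 4.82, and without it they were 0.60 and 0.80; spontaneous tumours overlapped the controls and cobalt tumours lay above them. Cox7a2l, known for its part in joining complexes III and IV, ran from 10.98 to 11.46 in controls (median 11.25), 11.51 to 11.75 in spontaneous (median 11.66) and 11.29 to 12.22 in cobalt tumours (median 11.83), and rose by 0.42 ± 0.13 (1.34-fold, adjusted p = 0.0168) and 0.63 ± 0.13 (1.54-fold, adjusted p = 0.000986), with overlap in cobalt tumours only. Cox6b1, which faces the intermembrane space, ran from 12.38 to 12.58 in controls (median 12.52), 12.91 to 13.09 in spontaneous (median 12.99) and 12.60 to 12.99 in cobalt tumours (median 12.75). Both tumour groups lay above the controls without overlap, by 0.49 ± 0.07 (1.41-fold, adjusted p = 2.68e-05) and 0.27 ± 0.07 (1.21-fold, adjusted p = 0.00427); the latter was 0.10 with adjusted p = 0.326 under cyclic loess.

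The matrix-facing subunits Cox5a and Cox5b rose in spontaneous tumours. Cox5a ran from 10.86 to 11.52 in controls (median 11.21), 11.42 to 12.20 in spontaneous (median 11.99) and 11.24 to 12.10 in cobalt tumours (median 11.48), with differences of 0.68 ± 0.16 (1.60-fold, adjusted p = 0.00302) and 0.36 (adjusted p = 0.0902). Cox5b had medians of 12.30, 12.56 and 12.44 and differences of 0.31 ± 0.08 (1.24-fold, adjusted p = 0.00677) and 0.10 (adjusted p = 0.387). For both genes the tumour groups overlapped the controls, and a further probe set of each was called higher in cobalt tumours. The direct comparison of the tumour groups is given further on.

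Cox6a1 and Cox6c were the common subunits of complex IV on the lower side. Cox6a1, the widely made form of subunit 6a, ran from 13.16 to 13.49 in controls (median 13.35), 12.26 to 13.37 in spontaneous (median 12.39) and 12.57 to 12.77 in cobalt tumours (median 12.68), and fell 1.59-fold (-0.67 ± 0.16, adjusted p = 0.00408) and 1.58-fold (-0.66 ± 0.16, adjusted p = 0.0046). Cobalt tumours lay wholly below the controls, whereas the spontaneous tumours were split: tumours 2 and 6, at 13.37 and 13.19, lay in the control range and the other 4 at 12.26 to 12.40. Without those 2 the difference was -0.98. A further probe set of Cox6a1 gave 0.03 and -0.15 and was not called, so the fall rests on 1 probe set. Cox6c, chosen after its values were seen, fell in cobalt tumours (-0.32, adjusted p = 0.0100), while a further probe set of it gave 0.25 (adjusted p = 0.116) there and rose by 0.36 in spontaneous tumours (adjusted p = 0.0223), so that its direction depends on the probe set.

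The restricted isoforms stood apart from their common partners. Cox8b, the muscle form of subunit 8, ran from 7.71 to 9.12 in controls (median 7.87), 5.50 to 6.17 in spontaneous (median 5.98) and 5.64 to 6.57 in cobalt tumours (median 6.08). It fell 4.51-fold (-2.17 ± 0.21, adjusted p = 8.35e-07) and 3.97-fold (-1.99 ± 0.21, adjusted p = 2.06e-06), with no overlap; without control 2, at 9.12, the differences were -1.96 and -1.78. Its common partner Cox8a had medians of 11.47, 11.44 and 11.45 (0.08 and 0.03, adjusted p = 0.595 and 0.875). The testis form Cox8c differed by -0.16 in each group (adjusted p = 0.113 and 0.121).

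Cox7a1, the muscle form of subunit 7a, ran from 7.00 to 7.58 in controls (median 7.39), 5.11 to 6.64 in spontaneous (median 5.58) and 4.74 to 5.32 in cobalt tumours (median 5.12). It fell 3.17-fold (-1.66 ± 0.19, adjusted p = 5.21e-06) and 4.76-fold (-2.25 ± 0.19, adjusted p = 2.7e-07), with no overlap in either. Its common partner Cox7a2 had medians of 12.28, 12.60 and 12.49, and rose in spontaneous tumours (0.34 ± 0.09, 1.26-fold, adjusted p = 0.00568), while in cobalt tumours it differed by 0.13 (adjusted p = 0.294). Cox4i2, the lung form of subunit 4, which is known to change the response of the enzyme to oxygen, ran from 6.71 to 7.35 in controls (median 6.92), 5.97 to 6.38 in spontaneous (median 6.08) and 5.96 to 6.46 in cobalt tumours (median 6.21). It fell 1.79-fold (-0.84 ± 0.11, adjusted p = 1.93e-05) and 1.68-fold (-0.75 ± 0.11, adjusted p = 5.83e-05), with no overlap. Its partner Cox4i1 rose in spontaneous tumours from a control median of 12.73 to 12.96 (0.27 ± 0.08, adjusted p = 0.0121) and differed by 0.10 in cobalt tumours (adjusted p = 0.369).

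Ndufa4l2 showed the same contrast with Ndufa4, the subunit it resembles, which is now known as a part of complex IV. Ndufa4l2 ran from 8.30 to 9.04 in controls (median 8.93), 7.46 to 8.28 in spontaneous (median 7.84) and 7.33 to 8.03 in cobalt tumours (median 7.86), falling 1.94-fold (-0.95 ± 0.16, adjusted p = 0.00021) and 2.04-fold (-1.03 ± 0.16, adjusted p = 0.000106), with no overlap. Ndufa4 had medians of 11.28, 11.48 and 11.91, and its differences of 0.22 and 0.52 ± 0.21 did not pass (adjusted p = 0.448 and 0.0635).

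Cox6a2 and Cox6b2 were the more scattered of the restricted isoforms. Cox6a2, the muscle form of subunit 6a, ran from 9.48 to 10.07 in controls (median 9.63), 7.60 to 10.27 in spontaneous (median 9.27) and 7.29 to 9.97 in cobalt tumours (median 8.31). It fell 2.57-fold in cobalt tumours (-1.36 ± 0.46, adjusted p = 0.0286), a call lost without control 1 or any of cobalt tumours 2, 4 and 5 (adjusted p 0.0529 to 0.0711), and differed by -0.64 ± 0.46 in spontaneous tumours (adjusted p = 0.305), or 0.02 without tumours 2 and 6. Cox6b2, the testis form of subunit 6b, ran from 8.04 to 8.34 in controls (median 8.22), 6.42 to 8.29 in spontaneous (median 7.48) and 6.32 to 8.47 in cobalt tumours (median 7.29). Its fall in cobalt tumours (-0.96 ± 0.34, 1.94-fold, adjusted p = 0.0356) was lost without any 1 of controls 3 to 6 or cobalt tumours 1, 4 and 6 (adjusted p 0.0549 to 0.0892), and in spontaneous tumours the difference was -0.86 (adjusted p = 0.0588). Cox7b2 lay near the floor of the arrays in all groups (-0.14 in each, not called).

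**Figure D4:**
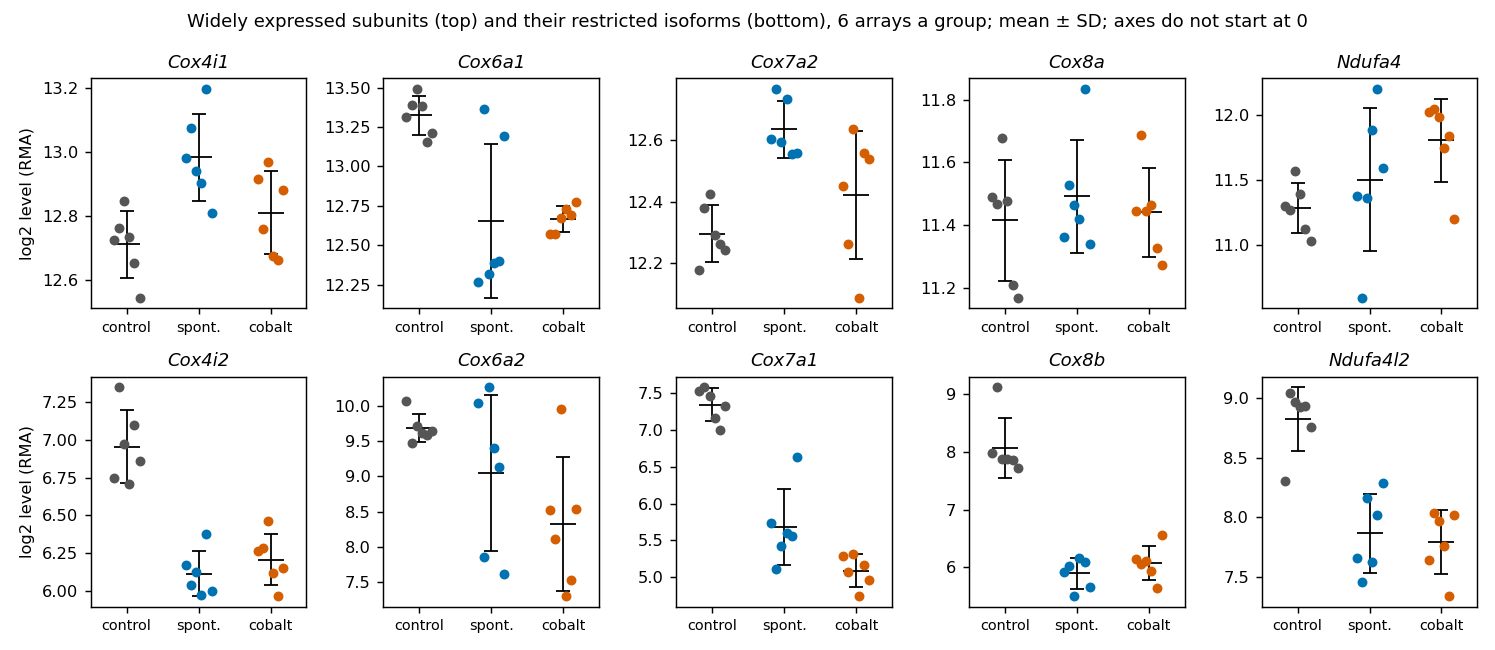
Log2 levels of 5 common subunits (top) and of the restricted isoform of each (bottom), with 6 arrays a group as points and the mean ± SD as bars; axes do not start at 0. Cox4i2, Cox7a1, Cox8b and Ndufa4l2 are lower in both tumour groups with no overlap, Cox6a2 overlaps, and among the partners only Cox6a1 falls.

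Most markers of heart muscle and of smooth muscle and pericytes were lower in the tumours, as several of these isoforms were. The summed level of 15 heart muscle markers, on the log2 scale, ran from 13.7 to 14.4 in controls (median 14.1), 9.29 to 11.0 in spontaneous (median 10.5) and 9.30 to 11.2 in cobalt tumours (median 9.44), and 14 and 13 of the 15 were lower; cyclic loess gave 13 and 13. Heart muscle sleeves are known to surround the pulmonary veins in mouse lung. Of 14 smooth muscle and pericyte markers 10 and 10 were lower and 1 and 1 higher, with sums of 13.5 to 14.2 in controls, 12.4 to 13.1 in spontaneous and 12.4 to 13.2 in cobalt tumours. Skeletal muscle markers gave 2 and 1 of 7 lower (28.6% and 14.3%), near the 18.2% and 19.3% of all genes called lower. Their sums overlapped, at 8.01 to 8.33, 7.86 to 8.18 and 7.82 to 8.10. Adipocyte markers gave 2 and 3 of 7 lower, with sums of 9.80 to 11.3, 8.56 to 8.85 and 8.34 to 9.66. Control 2 had the highest Cox8b (9.12) and Cox7a1 (7.58) of the controls, and also the highest adipocyte sum, at 11.3. The other controls had adipocyte sums of 9.80 to 10.4. The heart muscle sum of control 2 was 13.73, near the low end of the control range. These are values of 1 array. The part of muscle cells, vessel wall cells and adipocytes in the falls of Cox8b, Cox7a1, Cox4i2 and Ndufa4l2 was not tested.

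Cox6a2 did not follow the heart markers array by array. The 3 tumours with the highest Cox6a2 were spontaneous tumours 3 and 1 and cobalt tumour 3, at 10.27, 10.04 and 9.97, within or above the control range. Their summed heart markers were 9.29, 10.7 and 9.72, against 13.7 or more in every control. Cox8b in all 12 tumours lay below every control, as did the heart marker sum.

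**Figure D5:**
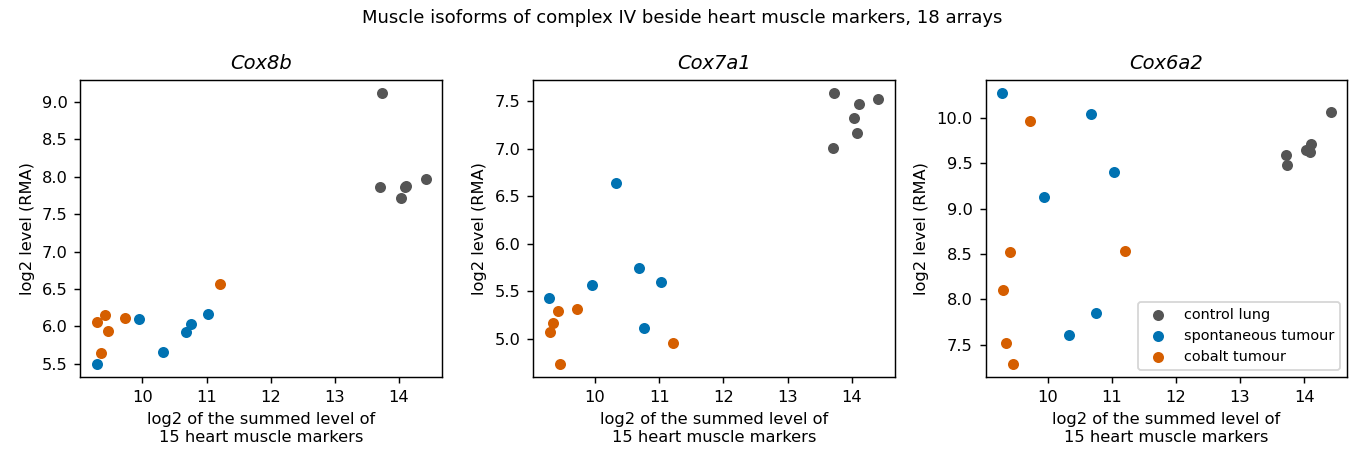
Log2 levels of Cox8b, Cox7a1 and Cox6a2 (y axes, which do not start at 0) against the log2 summed level of 15 heart muscle markers (x axis) in each of the 18 arrays, coloured by group. Controls lie at the upper right for Cox8b and Cox7a1 with all tumours at the lower left, whereas Cox6a2 reaches control levels in 3 tumours whose heart markers are low.

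Complex V, the ATP synthase, rose widely in spontaneous tumours. Of its 17 genes 10 rose and 0 fell there (median 0.27), and 6 rose and 1 fell in cobalt tumours (median 0.16); cyclic loess gave 5 and 1 (median 0.13), and 3 and 1 (median 0.02). The 5 genes of the catalytic head gave 3 and 2 rises (medians 0.27 and 0.16) and the 12 others 7 and 4, with 1 fall in cobalt tumours (medians 0.28 and 0.17). Array means of the complex ran from -0.08 to 0.14 in controls, 0.30 to 0.46 in spontaneous tumours and -0.03 to 0.40 in cobalt tumours, so that spontaneous tumours and controls were apart while cobalt tumours overlapped both.

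Atp5c1, the gamma subunit that turns within the head, ran from 11.28 to 11.50 in controls (median 11.39), 11.98 to 12.25 in spontaneous (median 12.10) and 11.59 to 12.13 in cobalt tumours (median 11.96). Both tumour groups lay above the controls without overlap, by 0.72 ± 0.09 (1.65-fold, adjusted p = 8.31e-06) and 0.54 ± 0.09 (1.45-fold, adjusted p = 0.000128). A further, dimmer probe set of Atp5c1 (mean 7.11) gave -0.03 and -0.04 and was not called. Of the alternating catalytic shell, Atp5b (beta) had medians of 12.45, 12.70 and 12.59 and rose in spontaneous tumours (0.27 ± 0.09, 1.21-fold, adjusted p = 0.028), a call lost without control 1, 2 or 5 or spontaneous tumour 6 (adjusted p 0.0512 to 0.0683) and with cyclic loess (0.10, adjusted p = 0.419), and differed by 0.13 in cobalt tumours (adjusted p = 0.294). Atp5a1 (alpha) had medians of 12.48, 12.63 and 12.45. Its spontaneous tumours lay above the controls without overlap but missed the threshold (0.27, adjusted p = 0.0522), and in cobalt tumours the difference was 0.03 (adjusted p = 0.848).

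Subunit c, which forms the rotating membrane ring, is encoded by 3 genes for the same mature protein. Atp5g2 ran from 11.07 to 11.68 in controls (median 11.19), 11.73 to 12.52 in spontaneous (median 11.82) and 11.30 to 12.08 in cobalt tumours (median 11.74), rising by 0.69 ± 0.16 (1.62-fold, adjusted p = 0.00213) and 0.48 ± 0.16 (1.39-fold, adjusted p = 0.0242). The second of these calls was lost without control 1, cobalt tumour 2 or cobalt tumour 3 (adjusted p 0.0540 to 0.0607) and with cyclic loess (0.34, adjusted p = 0.102). Atp5g3 had medians of 12.84, 13.07 and 12.99 and differences of 0.27 ± 0.06 (1.21-fold, adjusted p = 0.00353; 0.09 and adjusted p = 0.352 with cyclic loess) and 0.16 (adjusted p = 0.0745). Atp5g1 had medians of 10.27, 10.49 and 10.20 and passed in neither (0.25 and -0.08, adjusted p = 0.0764 and 0.623).

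The only common subunits that fell beside those of complexes II and IV were in cobalt tumours and were named after their values were seen. These were Ndufs5 of complex I (-0.33, adjusted p = 0.0267) and Atp5k, a membrane subunit of complex V (-0.29, adjusted p = 0.0089). In spontaneous tumours they differed by -0.11 and -0.08 (adjusted p = 0.470 and 0.453).

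Tumour groups were then compared with each other, a comparison that is not in the submitters' design. None of the 81 genes passed (0 of 81 by limma, beside 0.0824% of all genes, 0.044% higher and 0.0385% lower), and 23 had an unadjusted p under 0.05, beside 11.6% of all genes. Each alternative also gave 0; the exact permutation test could not have done otherwise, since its smallest adjusted p over all genes was 0.352. Of the 81 differences, cobalt minus spontaneous, 61 were negative, with a median of -0.12, and among the 73 common subunits 57 were negative with a median of -0.14, beside a median of 0.00 over all genes. Array means of the common subunits overlapped, at 0.04 to 0.28 in cobalt and 0.23 to 0.43 in spontaneous tumours.

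All 4 complex II subunits were on the lower side in cobalt tumours: Sdha by -0.18, Sdhb by -0.33 (adjusted p = 0.268), Sdhc by -0.31 (95% interval -0.53 to -0.09, adjusted p = 0.253) and Sdhd by -0.32 (adjusted p = 0.344). Sdhc was the only 1 of the 81 genes without overlap between the tumour groups, beside 0.616% of all genes. Uqcrc2 differed by -0.31 (interval -0.47 to -0.15, adjusted p = 0.133), Uqcrfs1 by -0.30 (adjusted p = 0.182), Cox7a1 by -0.59 (interval -0.99 to -0.19, adjusted p = 0.23), Atp5g1 by -0.33 (adjusted p = 0.228) and Cox6b1 by -0.22 (adjusted p = 0.207). With 6 arrays a group these intervals allow both small and sizeable differences, and a subunit called in 1 tumour group and not in the other is not thereby shown to differ between them.

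Other probe sets of the same genes mostly moved the same way. Of the genes called in spontaneous tumours, 24 had several probe sets; in 19 of them all had the same sign, in 16 another was also called in that direction and in 0 the opposite way. In cobalt tumours these counts were 19, 15, 12 and 0. Genes that were not called were less uniform: of 24 with several probe sets in spontaneous tumours, 9 had another that was called higher and 0 one called lower, and of 29 in cobalt tumours 10 and 2. The other probe sets of Ndufb2 gave 0.38 and 0.28 in spontaneous and 0.41 and 0.43 in cobalt tumours, smaller than the values above. Of these, 0 were called in spontaneous tumours and 1 in cobalt tumours. The further probe sets of Sdhc and Sdhd gave 0.17 and 0.63 in spontaneous tumours and -0.12 and 0.45 in cobalt tumours, and that of Cox7c 0.83 and 0.95. The further probe set of Sdhc was called in neither tumour group.

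Within groups, the genes of 1 complex varied together to differing degrees. The median correlation of a gene's deviations from its group means with those of the other respiratory genes, over 18 arrays, was 0.15, beside 0.03 with other genes. It was 0.30 within complex V, 0.21 within complex I, 0.16 within complex III, 0.07 within complex II and 0.05 within complex IV. Without the restricted isoforms it was 0.22 within complex I and 0.01 within complex IV. These points share the array and its scaling, and the values are given as a description only.

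The lists of related genes were read in the same fit, with the background shares given above. Of 10 chain genes outside the naming pattern, 6 rose in spontaneous tumours and 1 in cobalt tumours, with 0 falls (medians 0.38 and 0.11; with cyclic loess 3 rose in the former, and 1 rose and 1 fell in the latter). The largest rise was that of Atpif1, the inhibitor that stops ATP synthase from running backwards, at 2.38-fold (1.25, adjusted p = 0.000106) and 2.61-fold (1.38, adjusted p = 4.34e-05). Cyc1, cytochrome c1 of complex III, rose by 0.50 in spontaneous tumours (adjusted p = 0.00738) and differed by 0.20 in cobalt tumours (adjusted p = 0.281). Cycs, cytochrome c itself, rose by 0.54 (adjusted p = 0.028) and differed by 0.48 (adjusted p = 0.0502). With cyclic loess neither passed in spontaneous tumours (adjusted p = 0.0543 and 0.105), and the call of Cycs was also lost without control 1 or 4 or spontaneous tumour 2, 4 or 6.

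Assembly factors, which build the complexes without staying in them, were mixed. Of 15 for complex I, 5 rose and 2 fell in spontaneous tumours and 3 rose and 5 fell in cobalt tumours (medians 0.10 and -0.04): Timmdc1 rose in both (0.79 and 0.52, adjusted p = 0.000198 and 0.00574) and Ndufaf3 fell in both (-0.51 and -0.80, adjusted p = 0.00102 and 1.73e-05). With cyclic loess 3 and not 5 fell in cobalt tumours. Of 4 for complex II, 2 rose in each (medians 0.48 and 0.40), namely Sdhaf3 (0.70 and 0.63, adjusted p = 0.029 and 0.049) and Sdhaf4 (0.68 and 0.62, adjusted p = 0.00523 and 0.0096). Of 6 for complex III, 2 and 1 rose (medians 0.25 and 0.00): Uqcc3 in both (0.64 and 0.73, adjusted p = 0.00237 and 0.000753), and Bcs1l in spontaneous tumours alone (0.37, adjusted p = 0.0455), a call lost in 11 of the 18 fits that left out 1 array (0.24 without spontaneous tumour 5, adjusted p = 0.0908). The call of Sdhaf3 was lost in 4 such fits in spontaneous and in 15 in cobalt tumours (adjusted p up to 0.0703 and 0.117).

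Among 18 factors of complex IV, 7 rose and 1 fell in spontaneous tumours, and 2 rose and 2 fell in cobalt tumours (medians 0.30 and 0.05). Cox20 rose in both (0.66 and 0.51, adjusted p = 0.000794 and 0.00567). Cox10, an enzyme of an earlier step on the way to haem A, fell in both (-0.24 and -0.33, adjusted p = 0.0476 and 0.00896). The first of these 2 calls of Cox10 was lost in 12 fits that left out 1 array and with cyclic loess. Surf1 fell in cobalt tumours (-0.55, adjusted p = 0.000352). Of 3 for complex V, 2 rose and 1 fell, and 0 rose and 1 fell: Tmem70 rose in spontaneous tumours (0.69, adjusted p = 0.000695; 0.11 in cobalt tumours, adjusted p = 0.584), and Atpaf1 fell in both (-0.66 and -0.62, adjusted p = 0.0154 and 0.0219; the second lost without cobalt tumour 2 or 3). Without spontaneous tumours 2 and 6, 1 and not 2 rose in spontaneous tumours in the lists of complexes II, III and V.

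Genes that keep and transcribe mitochondrial DNA gave 6 rises and 2 falls of 14 in spontaneous tumours, and 3 rises and 1 fall in cobalt tumours (medians 0.29 and 0.14). Tfb1m (0.77 and 0.72, adjusted p = 0.000752 and 0.00129), the single-strand binding protein Ssbp1 (0.66 and 0.77, adjusted p = 0.000264 and 6.7e-05) and the packaging factor Tfam (0.34 and 0.48, adjusted p = 0.0139 and 0.0013) rose in both. Of 13 transcriptional regulators of respiratory genes 3 rose and 0 fell, and 5 rose and 1 fell (medians 0.24 and 0.43); with cyclic loess 5 and 6 rose. Myc rose by 1.71 in each (adjusted p = 0.0052 and 0.00512), the receptor Esrra by 0.49 and 0.43 (adjusted p = 0.00349 and 0.00966) and Yy1 by 0.43 and 0.60 (adjusted p = 0.00233 and 0.000137). The coactivator Ppargc1a rose in cobalt tumours (1.18, adjusted p = 0.0462), a call lost in 12 of the 18 fits that left out 1 array (adjusted p 0.0506 to 0.0942), and differed by 0.99 in spontaneous tumours (adjusted p = 0.0918), or 1.77 without tumours 2 and 6 (adjusted p = 7.76e-05).

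Of 17 genes of the citric acid cycle and pyruvate dehydrogenase, 8 rose and 1 fell, and 3 rose and 2 fell (medians 0.32 and 0.16). Suclg2 (0.96 and 1.25, adjusted p = 0.00229 and 0.000235), malate dehydrogenase Mdh2 (0.68 and 0.49, adjusted p = 5.29e-05 and 0.000915) and citrate synthase Cs (0.43 and 0.51, adjusted p = 0.00216 and 0.000493) rose in both. Ogdh fell in both (-0.44 and -0.59, adjusted p = 0.0216 and 0.00319; the first lost without control 5, adjusted p = 0.0507), and Idh3a fell in cobalt tumours (-0.97, adjusted p = 0.000601; -0.31 in spontaneous tumours, adjusted p = 0.216).

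Called genes of the mitochondrial import, membrane and ribosome lists were nearly all higher. Of 17 membrane and matrix proteins 12 rose and 0 fell, and 6 rose and 0 fell (medians 0.54 and 0.19), among them prohibitin Phb2 (1.02 and 1.08, adjusted p = 0.000593 and 0.000339). Leaving out spontaneous tumours 2 and 6 left 8 rises in the former, and cyclic loess gave 9 rises and 1 fall, and 5 and 1. Of 76 mitochondrial ribosomal proteins 54 rose and 1 fell, and 26 rose and 2 fell (medians 0.43 and 0.22), with Mrpl32 rising by 1.06 and 1.04 (adjusted p = 3e-06 and 3.55e-06). Cyclic loess left 45 and 24 of these rises.

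Genes of the switch from respiration to glycolysis spanned the widest range of the 12 lists: of 12, 7 rose and 1 fell, and 5 rose and 1 fell (medians 0.49 and 0.30). Egln3, an oxygen sensor that is itself a hypoxia-induced gene, rose 17.6-fold and 7.58-fold (4.14 and 2.92, adjusted p = 5.56e-06 and 0.000147), lactate dehydrogenase Ldha 3.62-fold and 2.67-fold (1.86 and 1.41, adjusted p = 3.75e-07 and 5.02e-06) and the glucose transporter Slc2a1 by 1.96 and 1.87 (adjusted p = 0.00173 and 0.00249). Pdk4, a kinase that shuts pyruvate dehydrogenase, fell 7.76-fold and 5.11-fold (-2.96 and -2.35, adjusted p = 0.000445 and 0.00276). In every one of these lists 0 genes passed between the tumour groups.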

How the data were processed

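RNA of 18 samples was read on Affymetrix 3' arrays, 1 array a sample and 6 a group, grouped by title, source and group label. The authors deposited log2 levels, and the submitters' processing notes name RMA, whose version is not given in the sources used here. RMA in its usual form makes the arrays' distributions alike. Of 45101 probe sets, 64 are controls, 34945 have 1 symbol, 932 several and 9160 none; 34741 matched RefSeq by Entrez identifier and 0 symbols changed. The probe set with the highest mean stood for a gene, which left 18193 genes.

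Groups were compared in R 4.3.3 with limma 3.58.1 (lmFit, eBayes; all 18 arrays, no covariate), two-sided, with Benjamini-Hochberg adjustment over all genes at 0.05; ± is the SE of that fit. The limma script was tested on simulated data. The design text names ORIOGEN, which was not run. Alternatives were cyclic loess, leaving out dim genes, the mean of probe sets, trend and robust options, array weights, 12 arrays alone, a replicate block, Y-linked RNA as covariate, arrays with Xist above 10, arrays that stand apart left out, each array left out, all probe sets, and an exact permutation test.

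Named with values were isoform pairs, catalytic and core subunits, X-linked subunits, the 5 largest called differences in each direction per comparison, and up to 3 called genes each way per list. Genes and lists were chosen with earlier results of these data known. No sequence of a protein was used, and the number of arrays limits the precision.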

Additional observations from a re-analysis of the deposited data

Results flagged for a closer look

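Each sample here lies apart from the other 5 of its group by Dixon's criterion. Chance alone gives this in about 5% of groups, and 12 of 132 groups met it. Among subunits, Atp5a1 stood at 12.83 in cobalt tumour 3 (others 12.36 to 12.47) and Atp5b at 13.03 in spontaneous tumour 6 (others 12.63 to 12.76). Cox7c stood at 4.82 in control 2 (others 6.40 to 7.18), and Cox8b at 9.12 in the same array (others 7.71 to 7.98). In cobalt tumour 6, Ndufa4 stood at 11.20 (others 11.75 to 12.04) and Ndufb2 at 9.83 (others 10.82 to 11.16). Sdhc stood at 11.21 in spontaneous tumour 5 (others 10.61 to 10.74) and Sdhd at 11.19 in spontaneous tumour 6 (others 10.48 to 10.69).

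Of the array means over common subunits, as log2 differences from the control mean, complex I was 0.084 in cobalt tumour 6 (others 0.22 to 0.30). Complex V was 0.46 in spontaneous tumour 5 (others 0.30 to 0.36). Over all 73 common subunits control 3 stood at 0.14 (others -0.06 to 0.01) and spontaneous tumour 5 at 0.43 (others 0.23 to 0.30).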

How the results depend on the processing

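Against 37 rises and 5 falls in spontaneous tumours and 25 and 11 in cobalt tumours, cyclic loess gave 23 and 9, and 16 and 15; arrays with high Xist alone gave 23 and 6, and 21 and 6. The other alternatives kept all 4 counts within 1.5 times. Leaving out each array in turn gave 33 to 39 rises and 5 to 6 falls in spontaneous tumours, and 20 to 29 and 8 to 12 in cobalt tumours, with 0 calls between the tumour groups throughout. Of 41 calls of the named subunits, cyclic loess kept 29, high Xist arrays 30, the Y-linked covariate 36 and the exact permutation test 40, the loss being Cox6a1 in spontaneous tumours (adjusted permutation p = 0.059); 0 were reversed under any of the 13 alternatives or the 18 fits with an array left out.

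With the replicate number as a block, 35 rose and 5 fell in spontaneous tumours and 24 and 11 in cobalt tumours, with 0 calls between tumour groups. The numbers did not pair the samples: correlations of same-numbered deviations were -0.05 to 0.05, -0.11 to 0.10 and -0.34 to 0.19 in the 3 comparisons, and 0 samples correlated best with their own number. Detection calls were not used here, so background under the 4 subunits whose mean lies below 6.45 is unknown.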
